A study of Mus musculus with 8 samples.

Results

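The 43 genes described here encode enzymes that start, lengthen, sulfate or trim the sugar chains heparan sulfate and chondroitin sulfate, and they were chosen by name. Their symbols start with Chst, Hs2st, Hs3st, Hs6st, Ndst, Chsy, Chpf, Csgalnact, Xylt or Extl, or are Ext1, Ext2, Sulf1, Sulf2, Dse, Dsel or Ust. Each had a probe set annotated to that gene alone, as did 22180 genes in all, and Chsy1 and Chsy3, which had several, were represented by the brightest over the 8 arrays. The pattern Chst also takes in 7 sulfotransferases of other glycans, so that 36 of the 43 genes act on heparan, chondroitin or dermatan sulfate. All 43 were protein-coding in the RefSeq gene table of GRCm38.p6. The probe sets of Hs3st3a1, Chpf2 and Chst15 were annotated to several genes each and were not used, and Ndst1 was not analysed here.

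The bleomycin group was 4 arrays of cells from the lungs of 11-week-old C57BL/6J mice, kept specific pathogen-free, that had received bleomycin into the trachea. Bleomycin is an antibiotic that breaks DNA and is used to injure the lung and start fibrosis. The control group was 4 arrays from mice of the same strain and age that had received phosphate-buffered saline. In both groups the cells lacking CD45, CD31 and EpCAM, antigens of leukocytes, endothelium and epithelium, were sorted from whole lungs on day 10, and this is the only time point. The labels do not say whether the arrays came from separate animals, so the p-values cover only the spread among these samples, and that spread may be technical. The question is how the enzyme genes of these chains compare in mesenchymal cells after injury and without it.

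Heparan sulfate and chondroitin sulfate are long sulfated sugar chains that are built in the Golgi on the serine residues of proteoglycan core proteins. Both chains grow from the same linker, which xylosyltransferases begin, and the next sugar added commits the chain to one kind or the other. Sulfotransferases then place sulfate groups at defined positions, and the pattern of sulfation governs which growth factors, chemokines and morphogens the chain binds. In the lung these chains lie on cell surfaces, in basement membranes and in the interstitial matrix, where fibroblasts are a main source.

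The values are log2 intensities, 1 per probe set and array. The medians of the probe sets with no annotated gene ran from 4.20 to 4.35 on bleomycin arrays and from 4.44 to 4.52 on control arrays, and served as a guide to dim signal. The first principal component of the 22180 genes, with 58.6% of the variance, separated the groups, and the second, with 11.1%, split replicates 1 and 2 from replicates 3 and 4 in both groups. The mean of 7 mesenchymal markers was 11.39 to 11.63 on bleomycin arrays and 11.17 to 11.35 on control arrays, with Col1a1, Col1a2, Pdgfrb and Lum higher in the bleomycin group and Pdgfra and Tcf21 lower. Markers of cells the sort should remove were present as well. The mean of 10 alveolar epithelial markers was 6.71 to 7.63 on bleomycin arrays and 8.37 to 9.22 on control arrays, and 9 of the 10 were lower in the bleomycin group. The mean of 8 blood endothelial markers was 7.27 to 7.84 on bleomycin arrays and 8.23 to 9.33 on control arrays, and 7 of the 8 were lower. The mean of 6 airway epithelial markers was 6.02 to 6.85 on bleomycin arrays and 7.39 to 8.05 on control arrays, and 3 of the 6 were lower. The mean of 6 macrophage markers was 6.34 to 6.71 on bleomycin arrays and 6.08 to 6.32 on control arrays, and 3 of the 6 were higher. Other leukocyte lists did not share this rise. A list of 6 general leukocyte markers overlapped, at 6.25 to 6.48 on bleomycin arrays and 6.15 to 6.54 on control arrays, with 1 higher. Of 5 lymphocyte markers 1 was lower, and of 5 neutrophil markers none differed. Ptprc, the gene of CD45, had a log2 difference (bleomycin minus control) of -0.48 (limma adjusted p = 0.0529). The alveolar and endothelial lists were brightest on control replicates 1 and 2. On control replicates 3 and 4 the alveolar list, at 8.39 and 8.37, was still above every bleomycin array. The same held for the blood endothelial list, at 8.36 and 8.23, so leaving out control replicates 1 and 2 does not level these markers. In bulk samples, fewer cells of a type and less RNA per cell cannot be told apart.

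**Figure D1:**
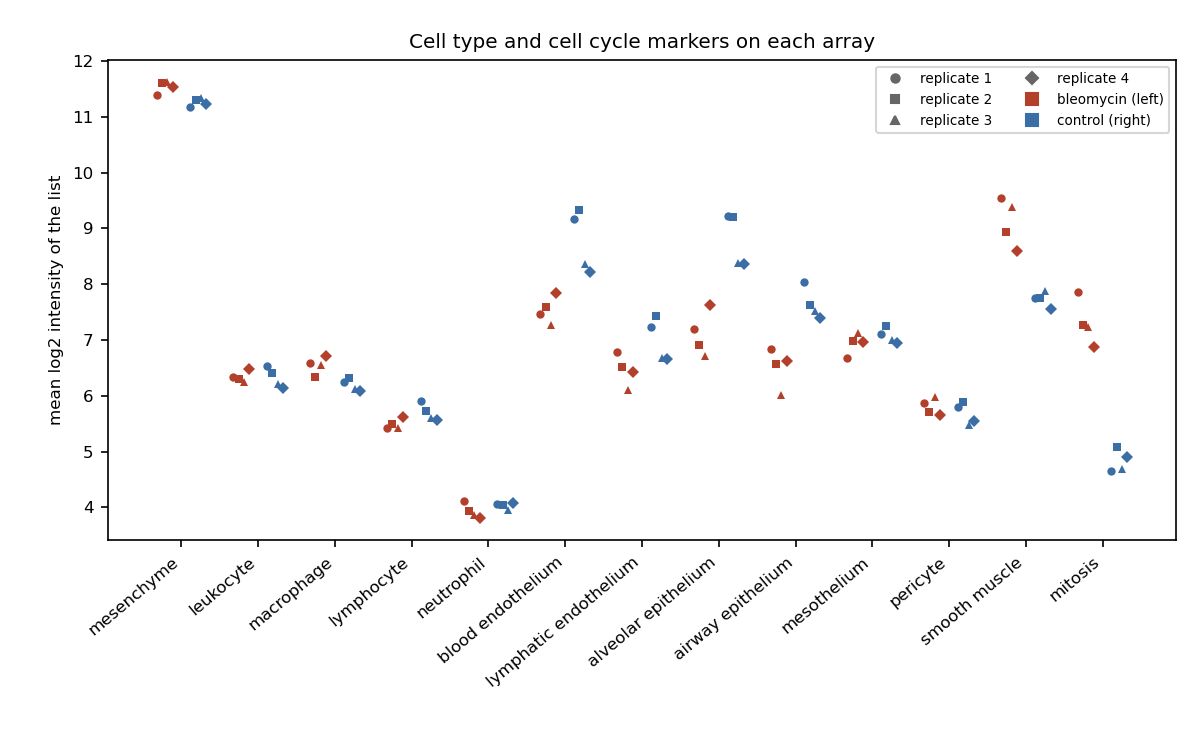
Mean log2 intensity of each marker list (vertical axis) on each array, for the 13 lists with measured members (horizontal axis), with bleomycin arrays left and control arrays right and a symbol for each replicate number. The means of the alveolar epithelial, airway epithelial and blood endothelial lists were lower on all bleomycin arrays than on all control arrays. Those of the mesenchyme, macrophage, smooth muscle and mitosis lists were higher. Single genes of a list may overlap between the groups.

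In mesenchymal cells of bleomycin lungs, 11 of the 43 enzyme genes, or 25.6%, were higher and 8, or 18.6%, were lower than in controls (limma, Benjamini-Hochberg adjusted p under 0.05 over all genes), and 24 did not pass. The background was 9.12% of all genes higher and 8.24% lower, and 10.1% and 8.72% of protein-coding genes. Since the genes were chosen with earlier results of these data known, these shares describe the list and are no test of it. The largest rises were in Chst11, which sulfates chondroitin at the 4-O position, Hs6st1, which sulfates heparan sulfate at the 6-O position, and Chsy3, which lengthens chondroitin. The largest falls were in Chst3 and Chst7, which both sulfate chondroitin at the 6-O position, and in Chst8, which acts on glycoproteins. The median log2 difference (bleomycin minus control) was 0.07 over the 43 genes and 0.03 over all genes, and the median size of the difference regardless of sign was 0.28 and 0.16. In 19 of the 43 genes, the same 19 that passed, the groups did not overlap, against 23.5% of all genes. The 24 genes that did not pass had differences between -0.19 and 0.38, and in 4 of them, Extl1, Extl3, Chst14 and Chst9, the unadjusted p was under 0.05.

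**Figure D2:**
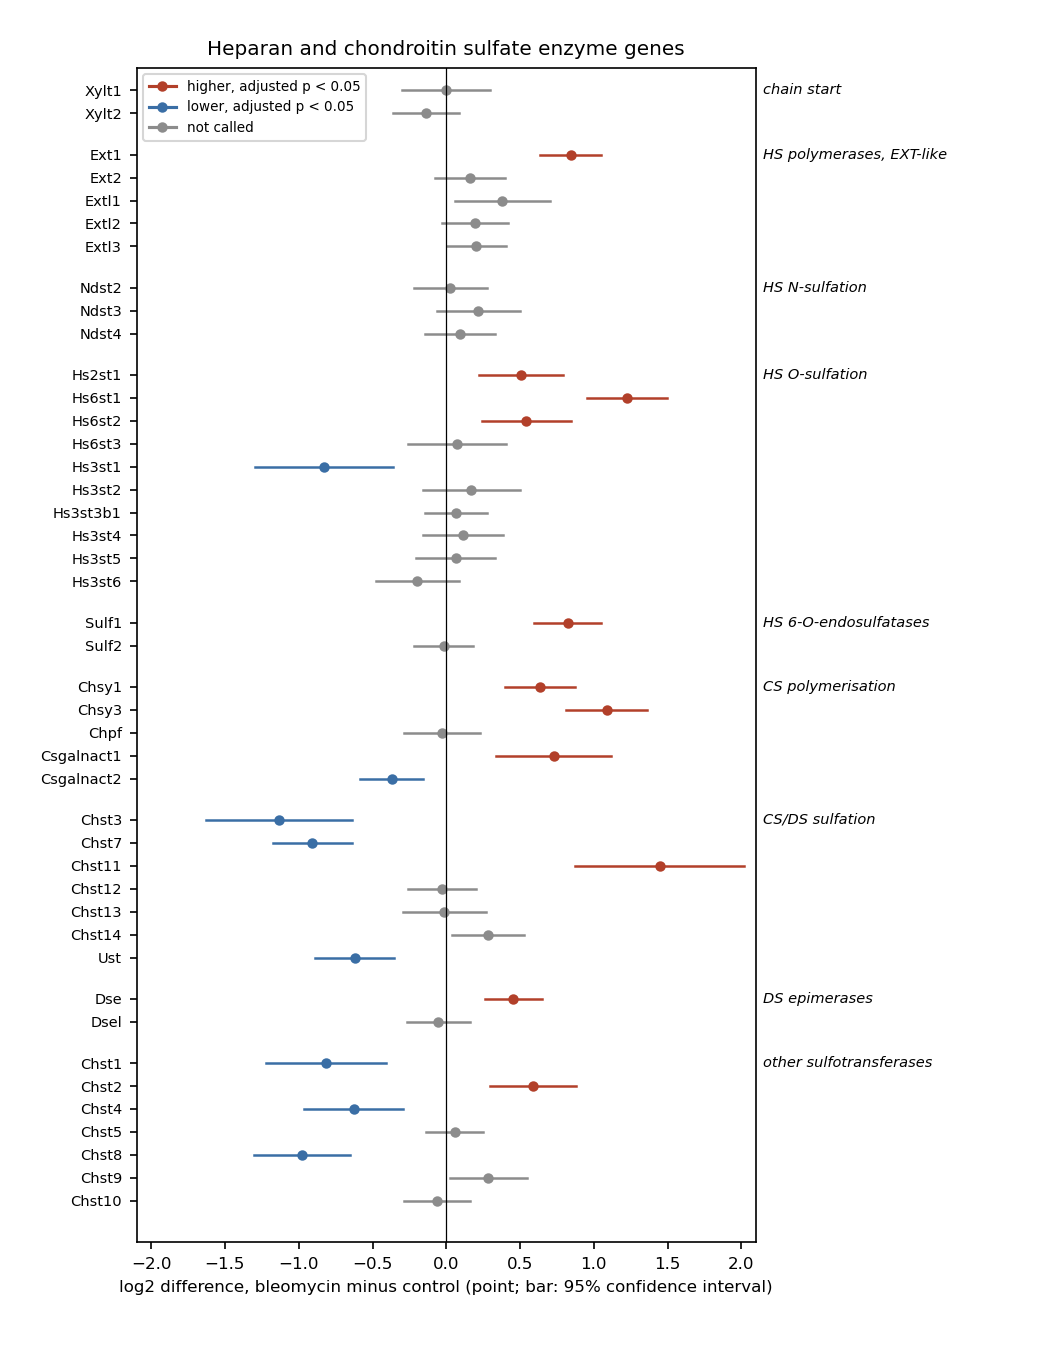
Log2 difference in level (bleomycin minus control, horizontal axis; point with 95% confidence interval) of the 43 enzyme genes, grouped by role (HS, heparan sulfate; CS, chondroitin sulfate; DS, dermatan sulfate). The 11 genes that were higher lie between 0.45 and 1.45 and the 8 that were lower between -1.13 and -0.37.

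The xylosyltransferases, which start both kinds of chain, did not pass. Xylt1 differed by -0.00071 ± 0.13 (log2 difference ± SE, as in all differences below; 95% confidence interval -0.30 to 0.30, n = 4 arrays each). Xylt2 differed by -0.14 ± 0.10 (interval -0.36 to 0.09). Neither interval reached the size of the changes given below for Ext1 or Hs6st1.

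Of the 5 polymerases and EXT-like enzymes of heparan sulfate, 1 rose. Ext1 and Ext2 together form the enzyme that lengthens the chain by alternating sugars. Ext1 (probe set 17317015) had log2 intensities of 11.17, 10.87, 11.07 and 10.90 on bleomycin arrays, against 10.10, 10.16, 10.14 and 10.23 on control arrays. All bleomycin arrays lay well above all control arrays, and the difference of 0.84 ± 0.09, or 1.79-fold, was larger than the spread between replicates (limma adjusted p = 0.000262). Ext2 had 8.54, 8.35, 8.59 and 8.53 on bleomycin arrays and 8.30, 8.16, 8.31 and 8.59 on control arrays. Its groups overlapped, with a difference of 0.16 ± 0.11 (interval -0.08 to 0.40; limma adjusted p = 0.36). The EXT-like genes are glycosyltransferases related to Ext1, of which Extl3 adds the sugar that commits the linker to heparan sulfate. Extl1, Extl2 and Extl3 differed by 0.38, 0.19 and 0.21 and did not pass. Extl1 passed only in the fit without control replicate 4 (difference of 0.50, limma adjusted p = 0.033). Its mean of 4.52 in the bleomycin group was close to the level of probe sets without a gene, and its control mean of 4.14 was under it.

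N-deacetylase/N-sulfotransferases replace acetyl groups by sulfate and open the chain to further sulfation. Ndst2, Ndst3 and Ndst4 differed by 0.03, 0.22 and 0.09, and none passed. Ndst3 and Ndst4 were dim in both groups, with means under the lowest of those guide medians.

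Of 10 heparan sulfate O-sulfotransferases, 3 rose and 1 fell. Hs6st1 (probe set 17211790) had 9.22, 9.13, 9.37 and 8.83 on bleomycin arrays, against 7.82, 7.82, 7.95 and 8.06 on control arrays. The groups did not overlap, and the gene was 2.34-fold higher in the bleomycin group, a difference of 1.23 ± 0.12 (limma adjusted p = 0.000144). Hs6st2, a related 6-O-sulfotransferase, had 4.22, 4.16, 4.68 and 4.18 on bleomycin arrays, against 3.53, 3.83, 3.75 and 3.95 on control arrays. Its bleomycin levels were close to those of probe sets without a gene and its control levels under them, and bleomycin replicate 3 stood above the other arrays. The difference was 0.54 ± 0.14 (limma adjusted p = 0.0209), and it missed the threshold without control replicate 1 (difference of 0.47, adjusted p = 0.0589) or control replicate 3 (difference of 0.54, adjusted p = 0.0519). The remaining member of that family, Hs6st3, differed by 0.07 ± 0.15 (interval -0.26 to 0.41). Hs2st1, which sulfates the uronic acid of heparan sulfate at the 2-O position, had 9.11, 8.73, 8.97 and 8.73 on bleomycin arrays, against 8.46, 8.60, 8.36 and 8.10 on control arrays. These groups lay apart by a narrower gap, with a difference of 0.51 ± 0.13 (limma adjusted p = 0.0226). Without control replicate 3 or 4, or bleomycin replicate 1 or 3, the adjusted p of Hs2st1 was between 0.0533 and 0.0629, with differences of 0.41 to 0.50.

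The 3-O-sulfotransferases add the rarest sulfate group, and the product of Hs3st1 is known for making the site that binds antithrombin. Hs3st1 had 4.12, 4.75, 4.89 and 4.68 on bleomycin arrays, against 5.79, 5.73, 4.95 and 5.29 on control arrays. The 4 bleomycin arrays were lower than the 4 control arrays, with a difference of -0.83 ± 0.21 (limma adjusted p = 0.0224). The highest bleomycin array, at 4.89, was close to the lowest control array, at 4.95. Bleomycin replicate 1 lay under the medians of probe sets without a gene, so the size of the difference is uncertain. Control replicates 1 and 2, where the epithelial and endothelial markers were brightest, also had the highest Hs3st1 levels. Without both of those arrays the difference was -0.51 (adjusted p = 0.186), and within replicates 3 and 4 of both groups it was -0.33 (adjusted p = 0.309). The call was also lost with the replicate number as a block (adjusted p = 0.0579), without control replicate 1 or 2 alone (-0.71 and -0.73, adjusted p of 0.0625 and 0.0622) and without bleomycin replicate 1 (-0.66, adjusted p = 0.0545). The part of those other cells in this result was not tested. Hs3st2, Hs3st3b1, Hs3st4, Hs3st5 and Hs3st6 differed by 0.17, 0.07, 0.12, 0.06 and -0.19, and none passed. Hs3st2 and Hs3st5 were dim in both groups, and Hs3st3b1 may share signal with its close relative Hs3st3a1.

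Sulf1 and Sulf2 encode endosulfatases that act outside the cell and remove 6-O-sulfate from finished heparan sulfate, the reverse of what the Hs6st enzymes do. Sulf1 (probe set 17211198) had 10.55, 10.50, 10.70 and 10.29 on bleomycin arrays, against 9.62, 9.78, 9.73 and 9.62 on control arrays. It was 1.77-fold higher with no overlap, a difference of 0.82 ± 0.10 (limma adjusted p = 0.000487). Sulf2 had 9.17, 9.27, 9.17 and 9.13 on bleomycin arrays and 9.33, 9.27, 9.18 and 9.04 on control arrays, levels that overlapped throughout. Its difference was -0.02 ± 0.09 (interval -0.22 to 0.18). The 6-O-sulfotransferase Hs6st1 and the 6-O-endosulfatase Sulf1 were thus both higher in the same samples.

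Of 5 genes that start and lengthen chondroitin chains, 3 rose and 1 fell. Chsy1 and Chsy3 encode chondroitin synthases, which add the alternating sugars of the chain. Chsy3 had 8.74, 8.28, 8.56 and 8.43 on bleomycin arrays, against 7.35, 7.20, 7.54 and 7.58 on control arrays. The arrays of each group lay close together, and the level was 2.12-fold higher in the bleomycin group, a difference of 1.09 ± 0.12 (limma adjusted p = 0.000296). Its second, dimmer probe set differed by 0.36 with overlapping groups. Chsy1 had 9.65, 9.45, 9.65 and 9.28 on bleomycin arrays, against 8.80, 9.01, 8.86 and 8.80 on control arrays. It differed by 0.64 ± 0.11 (limma adjusted p = 0.00263), and its second probe set by 0.98. Chpf, which encodes a partner that lengthens the chain together with the synthases, differed by -0.03 ± 0.12 (interval -0.29 to 0.23).

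Csgalnact1 and Csgalnact2 encode the transferases that add the first N-acetylgalactosamine and so commit the linker to chondroitin, and they moved in opposite directions. Csgalnact1 had 7.50, 7.02, 7.44 and 6.89 on bleomycin arrays, against 6.64, 6.82, 6.29 and 6.19 on control arrays. The bleomycin arrays were higher by 0.73 ± 0.18 (limma adjusted p = 0.018), but without control replicate 3 or bleomycin replicate 1 or 3 the adjusted p was between 0.0531 and 0.0539, with differences of 0.63 to 0.66. Csgalnact2 had 8.24, 8.37, 8.08 and 8.24 on bleomycin arrays, against 8.75, 8.63, 8.55 and 8.48 on control arrays. It was lower by a small margin, with a difference of -0.37 ± 0.10 (limma adjusted p = 0.0249). Without control replicate 1 or 2, or bleomycin replicate 1 or 3, its adjusted p was between 0.0553 and 0.0714, with differences of -0.37 to -0.32. Without both control replicates 1 and 2 its difference was -0.28 (adjusted p = 0.182). Those 2 arrays, where the epithelial and endothelial markers were brightest, also had the highest Csgalnact2 levels. The part of those other cells in the Csgalnact2 result was not tested.

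The sulfotransferases of chondroitin and dermatan sulfate showed the largest changes in both directions, with 1 of 7 higher and 3 lower. Chst11, Chst12 and Chst13 encode 4-O-sulfotransferases. Chst11 (probe set 17235941) had 9.23, 8.86, 9.32 and 7.96 on bleomycin arrays, against 7.54, 7.60, 7.23 and 7.22 on control arrays. The bleomycin arrays were spread widely, with replicate 4 nearest the controls, yet none overlapped them, and the level was 2.73-fold higher (difference of 1.45 ± 0.26, limma adjusted p = 0.00378). Chst12 and Chst13 differed by -0.03 ± 0.10 and -0.01 ± 0.13, with intervals of -0.26 to 0.20 and -0.29 to 0.27.

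Chst3 and Chst7 encode the chondroitin 6-O-sulfotransferases. Chst3 (probe set 17241045) had 5.93, 6.84, 6.66 and 7.21 on bleomycin arrays, against 7.69, 7.66, 7.94 and 7.88 on control arrays. Bleomycin replicate 1 was the lowest and replicate 4 the nearest to the controls, and the control arrays were 2.19-fold higher (difference of -1.13 ± 0.22, limma adjusted p = 0.00616). Chst7 (probe set 17533535) had 4.56, 4.32, 4.32 and 4.66 on bleomycin arrays, against 5.19, 5.23, 5.51 and 5.56 on control arrays. Its groups lay well apart, with the control arrays 1.88-fold higher (difference of -0.91 ± 0.12, limma adjusted p = 0.000726), though its bleomycin levels were close to those of probe sets without a gene. Ust, which sulfates uronic acid at the 2-O position in chondroitin and dermatan sulfate, had 7.97, 8.10, 7.94 and 8.21 on bleomycin arrays, against 8.50, 8.48, 8.88 and 8.85 on control arrays. It fell with no overlap, a difference of -0.62 ± 0.12 (limma adjusted p = 0.00544). Chst14, which sulfates dermatan at the 4-O position, differed by 0.28 ± 0.11 (interval 0.04 to 0.53; adjusted p = 0.105) and passed only in the fit that blocked replicates 1 and 2 from replicates 3 and 4 (adjusted p = 0.0398).

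The 250 bases upstream of the transcription start are shown for the genes that rose most on each chain, Chst11 and Hs6st1, and for both 6-O-sulfotransferase genes that fell, Chst3 and Chst7. They come from the RefSeq promoter table of GRCm38.p6 and read 5′ to 3′ on the strand of the gene. Capitals mark GGGCGG or its complement CCGCCC, the GC box bound by SP1.
Chst11 (GRCm38.p6, chr10:82985247-82985496, plus strand): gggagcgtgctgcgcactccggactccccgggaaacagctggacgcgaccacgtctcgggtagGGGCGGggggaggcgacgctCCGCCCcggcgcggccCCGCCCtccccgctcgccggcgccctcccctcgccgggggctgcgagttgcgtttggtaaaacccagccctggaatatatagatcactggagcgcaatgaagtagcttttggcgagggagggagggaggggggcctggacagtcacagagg
Hs6st1 (GRCm38.p6, chr1:36068150-36068399, plus strand): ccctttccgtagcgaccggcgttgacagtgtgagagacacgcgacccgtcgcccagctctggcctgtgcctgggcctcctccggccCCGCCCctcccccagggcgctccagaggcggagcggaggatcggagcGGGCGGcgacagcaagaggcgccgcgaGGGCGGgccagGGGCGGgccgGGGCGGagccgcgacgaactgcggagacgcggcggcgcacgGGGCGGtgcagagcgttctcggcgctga
Chst3 (GRCm38.p6, chr10:60219261-60219510, minus strand): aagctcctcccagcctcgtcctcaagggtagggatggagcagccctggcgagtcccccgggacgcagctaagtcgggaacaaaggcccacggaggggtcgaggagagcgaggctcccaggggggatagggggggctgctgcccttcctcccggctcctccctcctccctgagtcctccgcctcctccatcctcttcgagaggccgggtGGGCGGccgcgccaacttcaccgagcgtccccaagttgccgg
Chst7 (GRCm38.p6, chrX:20059320-20059569, plus strand): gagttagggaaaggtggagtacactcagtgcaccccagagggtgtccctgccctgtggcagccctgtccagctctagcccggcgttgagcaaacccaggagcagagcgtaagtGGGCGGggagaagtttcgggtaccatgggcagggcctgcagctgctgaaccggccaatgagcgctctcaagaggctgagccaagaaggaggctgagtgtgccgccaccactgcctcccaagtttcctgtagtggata
The GC box occurred 3 times upstream of Chst11, 6 times upstream of Hs6st1 and 1 time each upstream of Chst3 and Chst7. The number varied within each direction of change, with 4 in a region of Csgalnact2 and 4 in that of Chst8, which fell, and 0 in both regions of Hs6st2, which rose. The box was present in 6 of 8 regions of genes that rose and 5 of 9 regions of genes that fell. For genes that did not pass it was 14 of 22 regions, and these shares were not tested. Of the 39 upstream regions listed for 34 of the 43 genes, 64.1% held it, against 32.7% of all 32851 regions of the same length, and the median GC content was 71.0% for the genes that rose, 66.0% for those that fell, 62.2% for those that did not pass and 52.4% for all regions. All regions together were those of 27025 genes, and shares over protein-coding genes alone were not taken. The upstream regions of Ext1, Sulf1, Chsy3 and Csgalnact1 were not used here. No match on either strand was present in these 4 windows for CAGAC, the SMAD box, for TGANTCA, the AP-1 site, or for GGAATG, the TEAD site, which occurred in 33.3%, 5.13% and 10.3% of the regions of these enzyme genes, against 42.2%, 6.75% and 12.6% of all regions. These matches describe the letters only.

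Dse and Dsel encode the epimerases that turn glucuronic into iduronic acid and so make dermatan sulfate. Dse had 9.31, 9.24, 9.41 and 9.31 on bleomycin arrays, against 8.72, 8.93, 8.93 and 8.89 on control arrays. The arrays within each group were close, and the small difference of 0.45 ± 0.09 exceeded their spread (limma adjusted p = 0.00541). Dsel differed by -0.05 ± 0.10 (interval -0.27 to 0.16).

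Among the 7 sulfotransferases that the name pattern brought in from other glycans, 1 rose and 3 fell. Chst1 encodes the enzyme that sulfates galactose in keratan sulfate, and it had 6.23, 6.93, 6.74 and 6.80 on bleomycin arrays, against 7.10, 7.42, 7.87 and 7.55 on control arrays. It was lower on every bleomycin array than on any control array, with a difference of -0.81 ± 0.18 (limma adjusted p = 0.0124). Chst8, which sulfates N-acetylgalactosamine on pituitary glycoprotein hormones, had 6.63, 6.76, 6.15 and 6.49 on bleomycin arrays, against 7.74, 7.33, 7.31 and 7.57 on control arrays. The groups lay apart, with control arrays 1.97-fold higher (difference of -0.98 ± 0.15, limma adjusted p = 0.00144).

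Chst2 and Chst4 both encode N-acetylglucosamine 6-O-sulfotransferases that help make L-selectin ligands, and they moved in opposite directions. Chst2 had 9.13, 9.49, 8.84 and 9.06 on bleomycin arrays, against 8.65, 8.53, 8.45 and 8.54 on control arrays, a difference of 0.59 ± 0.13 (limma adjusted p = 0.0113). Chst4 had 4.91, 5.02, 4.78 and 4.86 on bleomycin arrays, against 5.90, 5.66, 5.37 and 5.14 on control arrays, a difference of -0.63 ± 0.15 (limma adjusted p = 0.0173). The Chst4 levels on control replicates 1 and 2 were the highest, as were the epithelial and endothelial markers there. Without those 2 arrays Chst4 differed by -0.36 (adjusted p = 0.106), and without bleomycin replicate 3 by -0.59 (adjusted p = 0.0503). Chst5, Chst9 and Chst10 differed by 0.06, 0.29 and -0.06 and did not pass, and Chst9 was dim in both groups.

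**Figure D3:**
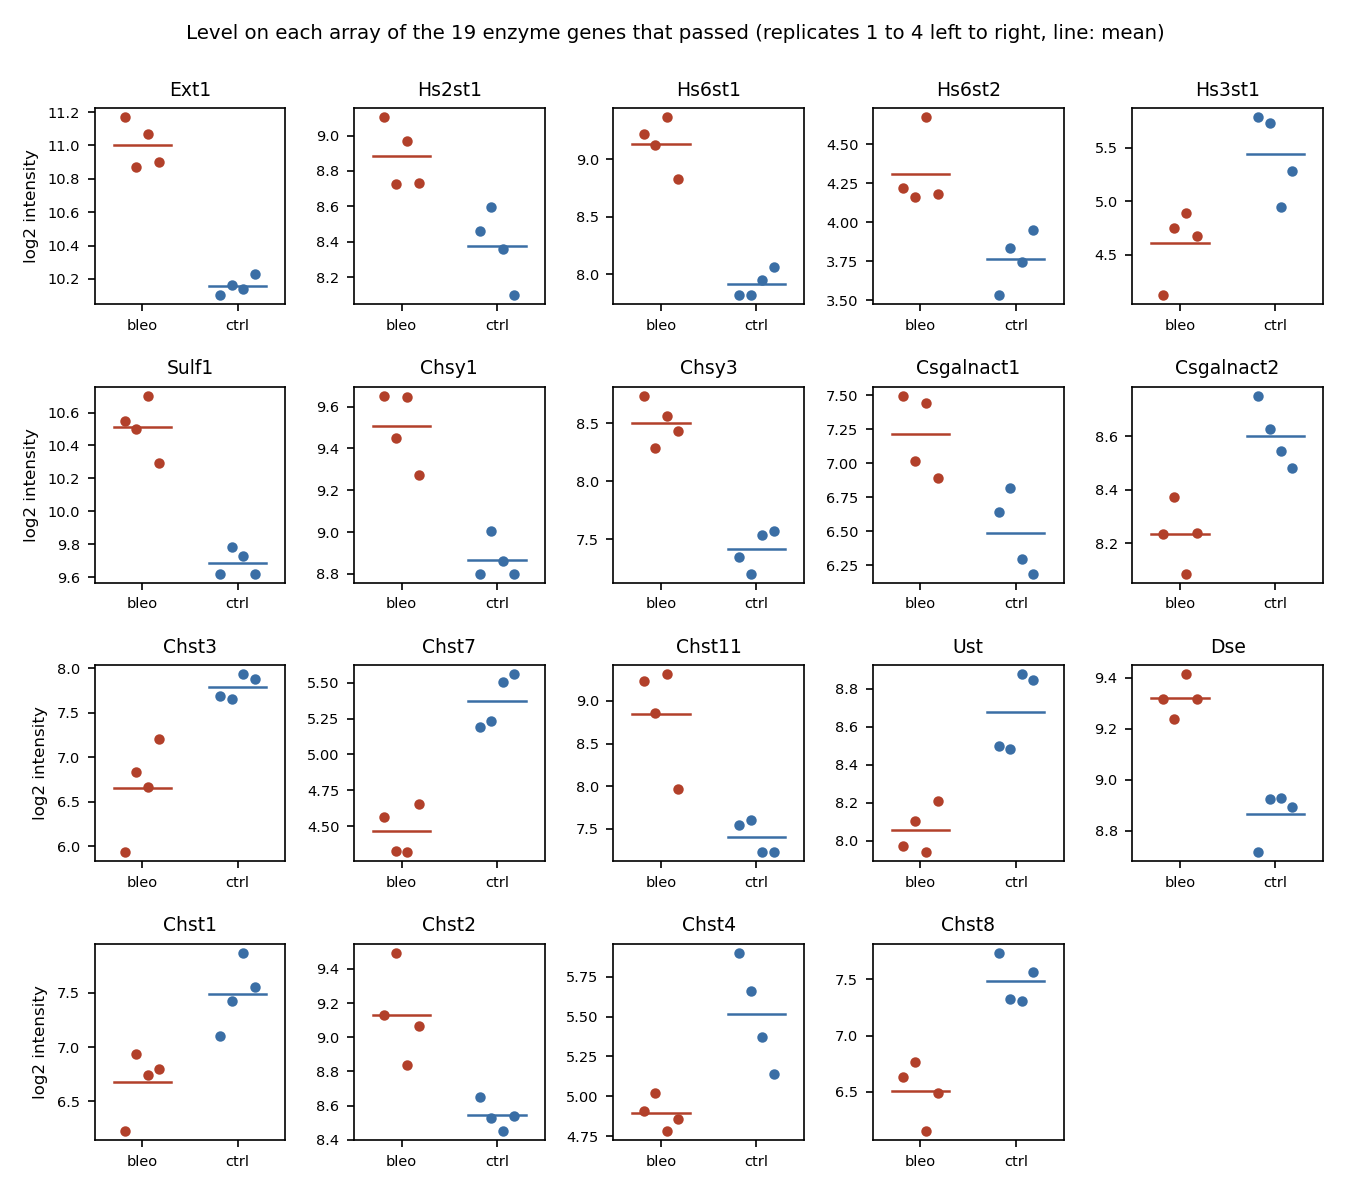
Log2 intensity (vertical axis, scaled per gene) on each bleomycin array (left) and control array (right) of the 19 enzyme genes that passed, with replicates 1 to 4 in order and a line at the group mean. No group overlaps the other in any panel, and Chst11 and Chst3 have the widest spread among bleomycin arrays.

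Related enzymes were set side by side within arrays, as the log2 difference between both genes of a pair. The 10 pairs were chosen with the values known, most of them for their unequal changes, so these differences are a description with no test. In 8 pairs the bleomycin and control arrays did not overlap in this measure, which that choice largely fixed. The change in Ext1 exceeded that in Ext2 by 0.68, that in Sulf1 exceeded Sulf2 by 0.84 and that in Hs6st1 exceeded Hs6st3 by 1.15. On the chondroitin side the change in Csgalnact1 exceeded that in Csgalnact2 by 1.10, that in Chsy3 exceeded Chsy1 by 0.45 and that in Dse exceeded Dsel by 0.51. The second probe sets of Chsy1 and Chsy3, with differences of 0.98 and 0.36, put these genes in the opposite order. The 4-O-sulfotransferase gene Chst11 changed by 1.48 more than Chst12 and by 2.58 more than the 6-O-sulfotransferase gene Chst3. The within-array difference between Chst11 and Chst3 was 2.18 ± 1.09 on bleomycin arrays and -0.39 ± 0.34 on control arrays (SD, n = 4 each), where only the contrast between the groups can be read, since probe sets differ in brightness. Xylt1 against Xylt2 and Chst3 against Chst7 differed in their changes by 0.14 and -0.22, with overlapping groups. The Chst7 levels on bleomycin arrays were near those of probe sets without a gene, which limits how large a fall could be seen, so its change and that of Chst3 cannot be ranked.

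**Figure D4:**
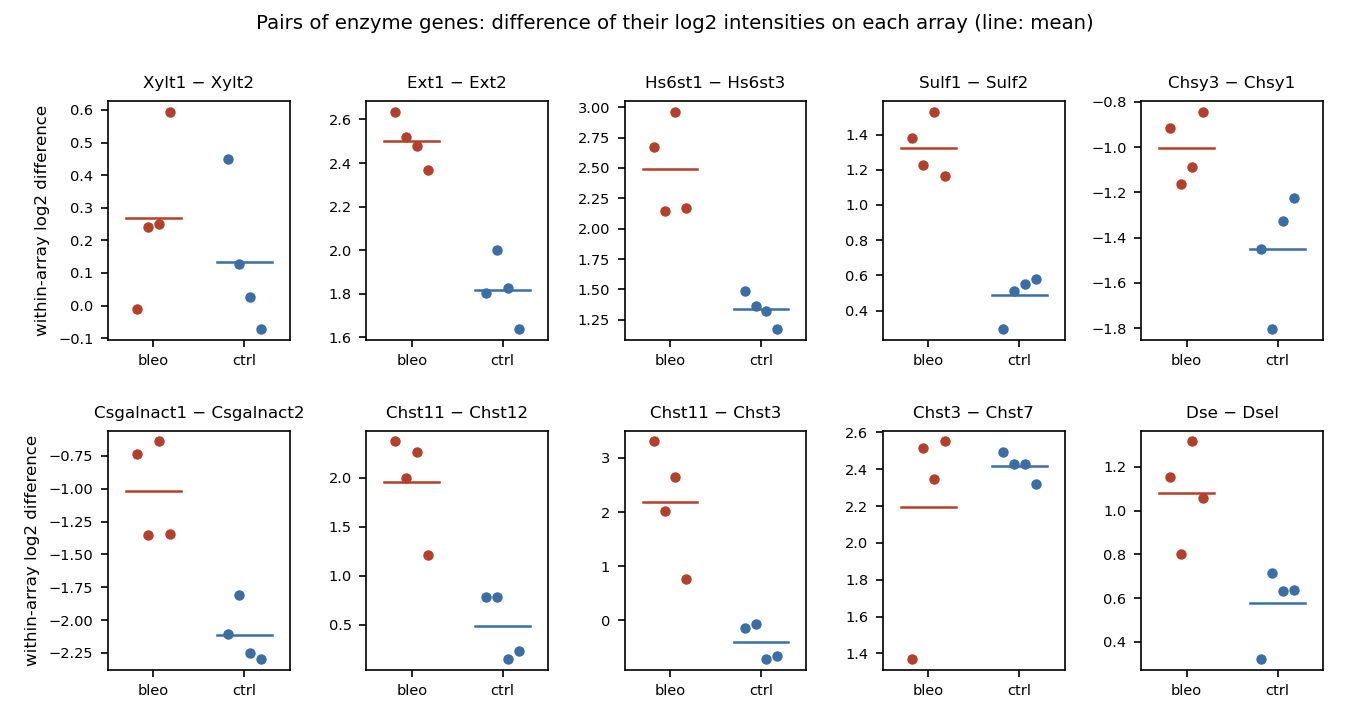
Difference between the log2 intensities of both genes of a pair on each array (vertical axis, scaled per pair), for bleomycin arrays (left) and control arrays (right), with a line at the group mean. The groups separate in 8 of the 10 pairs and overlap for Xylt1 and Xylt2 and for Chst3 and Chst7.

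The bleomycin arrays were not alike, in these genes or over all genes. Among the 11 genes that rose, the lowest bleomycin value was on replicate 4 in 5 genes and on replicate 2 in 5, and the highest was on replicate 1 in 5 and on replicate 3 in 5. The mean of 5 smooth muscle markers was also highest on replicates 1 and 3, at 9.54, 8.93, 9.39 and 8.60 on bleomycin replicates 1 to 4, against 7.55 to 7.87 on control arrays. The mean of 5 mitosis genes was 7.85, 7.26, 7.24 and 6.88 on bleomycin replicates 1 to 4, against 4.65 to 5.07 on control arrays. Of these lists 4 smooth muscle genes and all 5 mitosis genes were higher in the bleomycin group. Their part in the enzyme results was not tested.

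All 19 differences kept their direction in replicates 1 and 2 alone, in replicates 3 and 4 alone and without control replicates 1 and 2. In replicates 1 and 2 alone 5 of the 43 genes were higher and 4 lower, against 3.78% and 3.76% of all genes. In replicates 3 and 4 alone 2 were higher and 4 lower, against 2.27% and 0.992% of all genes. Ext1, Chsy3, Chst7 and Chst8 passed in both. Chst11 differed by 1.48 in the replicates 1 and 2 and by 1.41 in the replicates 3 and 4 (limma adjusted p of 0.00752 and 0.136), and Hs6st1 by 1.36 and 1.09 (adjusted p of 0.00467 and 0.0519). Without control replicates 1 and 2, 9 genes were higher and 5 lower, against 5.43% and 4.47% of all genes. The genes that missed the threshold there were Hs3st1, Csgalnact2 and Chst4, given above, Hs6st2 (0.46, adjusted p = 0.131) and Chst2 (0.64, adjusted p = 0.0564).

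The other genes of the pathway were read from the same fit, as 9 lists with 62 measured members, of which 15 were higher and 6 lower in the bleomycin group, against the 9.12% and 8.24% of all genes given above. Their median difference was 0.11. Of 12 genes that supply precursors 3 rose and none fell. They were Uxs1, which makes the xylose donor (level of 7.57 ± 0.07 in the bleomycin group, against 7.08 ± 0.07 in controls, mean ± SD, n = 4 each; difference of 0.49 ± 0.08, limma adjusted p = 0.00255), Slc35b2, which carries the sulfate donor into the Golgi (difference of 0.45 ± 0.10, limma adjusted p = 0.0114), and the sulfate transporter gene Slc26a2 (difference of 0.39 ± 0.09, limma adjusted p = 0.0147). The sulfate donor synthases Papss1 and Papss2 differed by 0.23 and -0.42 and did not pass. Of 5 other genes of the linker 1 rose, the xylose phosphatase gene Pxylp1, by 0.63 ± 0.11 (limma adjusted p = 0.00334). Glce, the epimerase of heparan sulfate, differed by -0.01 ± 0.08 (interval -0.18 to 0.16).

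Core proteins, which carry the chains, moved in both directions. Of 11 membrane heparan sulfate core proteins 4 rose and 2 fell. The glypican gene Gpc4 was 8.13 ± 0.23 in the bleomycin group, against 6.49 ± 0.18 in controls (mean ± SD, n = 4 each), a difference of 1.63 ± 0.13 (limma adjusted p = 4.84e-05). The syndecan genes Sdc3 and Sdc1 rose by 1.37 and 0.95 and the glypican gene Gpc1 by 0.71 (limma adjusted p of 0.000529, 0.00532 and 0.0071). Tgfbr3, which encodes the TGF-beta co-receptor betaglycan, was 9.32 ± 0.28 in the bleomycin group, against 10.45 ± 0.09 in controls, a difference of -1.13 ± 0.13 (limma adjusted p = 0.00037). Gpc3 differed by -0.39 (limma adjusted p = 0.0187). Of 6 secreted heparan sulfate core proteins 1 rose, perlecan, Hspg2, by 0.68 ± 0.11 (limma adjusted p = 0.00198), and 1 fell, the testican gene Spock2, by 1.05 (limma adjusted p = 5.83e-05).

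Of 12 chondroitin and dermatan sulfate core proteins 4 rose and 1 fell. Versican, Vcan, was 9.55 ± 0.10 in the bleomycin group, against 8.51 ± 0.20 in controls, a difference of 1.03 ± 0.11 (limma adjusted p = 0.000248). Cspg4, also a pericyte marker, differed by 1.37 ± 0.20, the hyaluronan receptor gene Cd44 by 0.93 ± 0.10 and the aggrecan gene Acan by 0.61 ± 0.16 (limma adjusted p of 0.00115, 0.000247 and 0.0274). Of 5 pericyte markers 1, Cspg4, was higher and 1, Higd1b, was lower (-0.61, limma adjusted p = 0.00469), with a median difference of 0.13. The Acan levels were near those of probe sets without a gene in the bleomycin group, at 4.58 ± 0.30, and under them in controls, at 3.97 ± 0.24 (mean ± SD, n = 4 each), so the size of its difference is uncertain. Esm1, an endothelial proteoglycan gene, differed by -0.84 ± 0.25 (limma adjusted p = 0.0423), with the blood endothelial markers lower as given above, and their part in it was not tested. Decorin and biglycan, Dcn and Bgn, differed by -0.26 and 0.11 and did not pass, but Dcn passed after median centring (-0.31, adjusted p = 0.0492). Dcn also passed with the dimmest 50% of genes left out and with a trended and robust variance model (limma adjusted p of 0.0356 and 0.0282). Of 9 measured genes that break down heparan sulfate 2 rose and 1 fell. Heparanase, Hpse, rose by 0.69 ± 0.14, the lysosomal glucuronidase gene Gusb rose by 0.47 ± 0.13 and the iduronate sulfatase gene Ids differed by -0.45 ± 0.10 (limma adjusted p of 0.00706, 0.0286 and 0.0114). Of 4 measured genes in the list for breakdown of chondroitin and dermatan sulfate 1 fell, the sulfatase gene Arsk, with a difference of -0.63 ± 0.11 (limma adjusted p = 0.00396). Each gene was entered in 1 list only, also where its product may act on both kinds of chain. Sumf1 and Sumf2, which activate or resemble the activator of sulfatases, differed by -0.14 and 0.12 and did not pass.

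Of the 21 pathway genes that passed, 17 did so in every fit without 1 array. Esm1 missed the threshold without control replicate 1 or 2 or bleomycin replicate 1, 2 or 3 (differences of -0.87 to -0.58, adjusted p of 0.0602 to 0.104). Acan missed it without control replicate 1, 2 or 3 or bleomycin replicate 1 or 3 (0.50 to 0.63, adjusted p of 0.0534 to 0.0754). Gusb missed it without control replicate 1, 2 or 3 or bleomycin replicate 3 or 4 (0.40 to 0.49, adjusted p of 0.0538 to 0.0784), and Gpc3 without control replicate 3 (-0.37, adjusted p = 0.053). Acan and Esm1 also missed it with the replicate number as a block (adjusted p of 0.0765 and 0.0714), while Bpnt2, which clears a by-product of sulfation, and the heparanase relative Hpse2 passed (0.34 and 0.36, adjusted p of 0.0331 and 0.0446). Blocking replicates 1 and 2 from replicates 3 and 4, Bpnt2, Hpse2, Papss2, Srgn, Col18a1 and Naglu passed (adjusted p of 0.019 to 0.0498). Without both control replicates 1 and 2, 11 of the 62 genes were higher and 3 lower, against the 5.43% and 4.47% of all genes given above. Esm1, Acan, Gusb, Gpc3, Slc35b2, Slc26a2, Gpc1 and Ids missed the threshold there, and Bpnt2 passed (0.47, limma adjusted p = 0.0472).

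**Figure D5:**
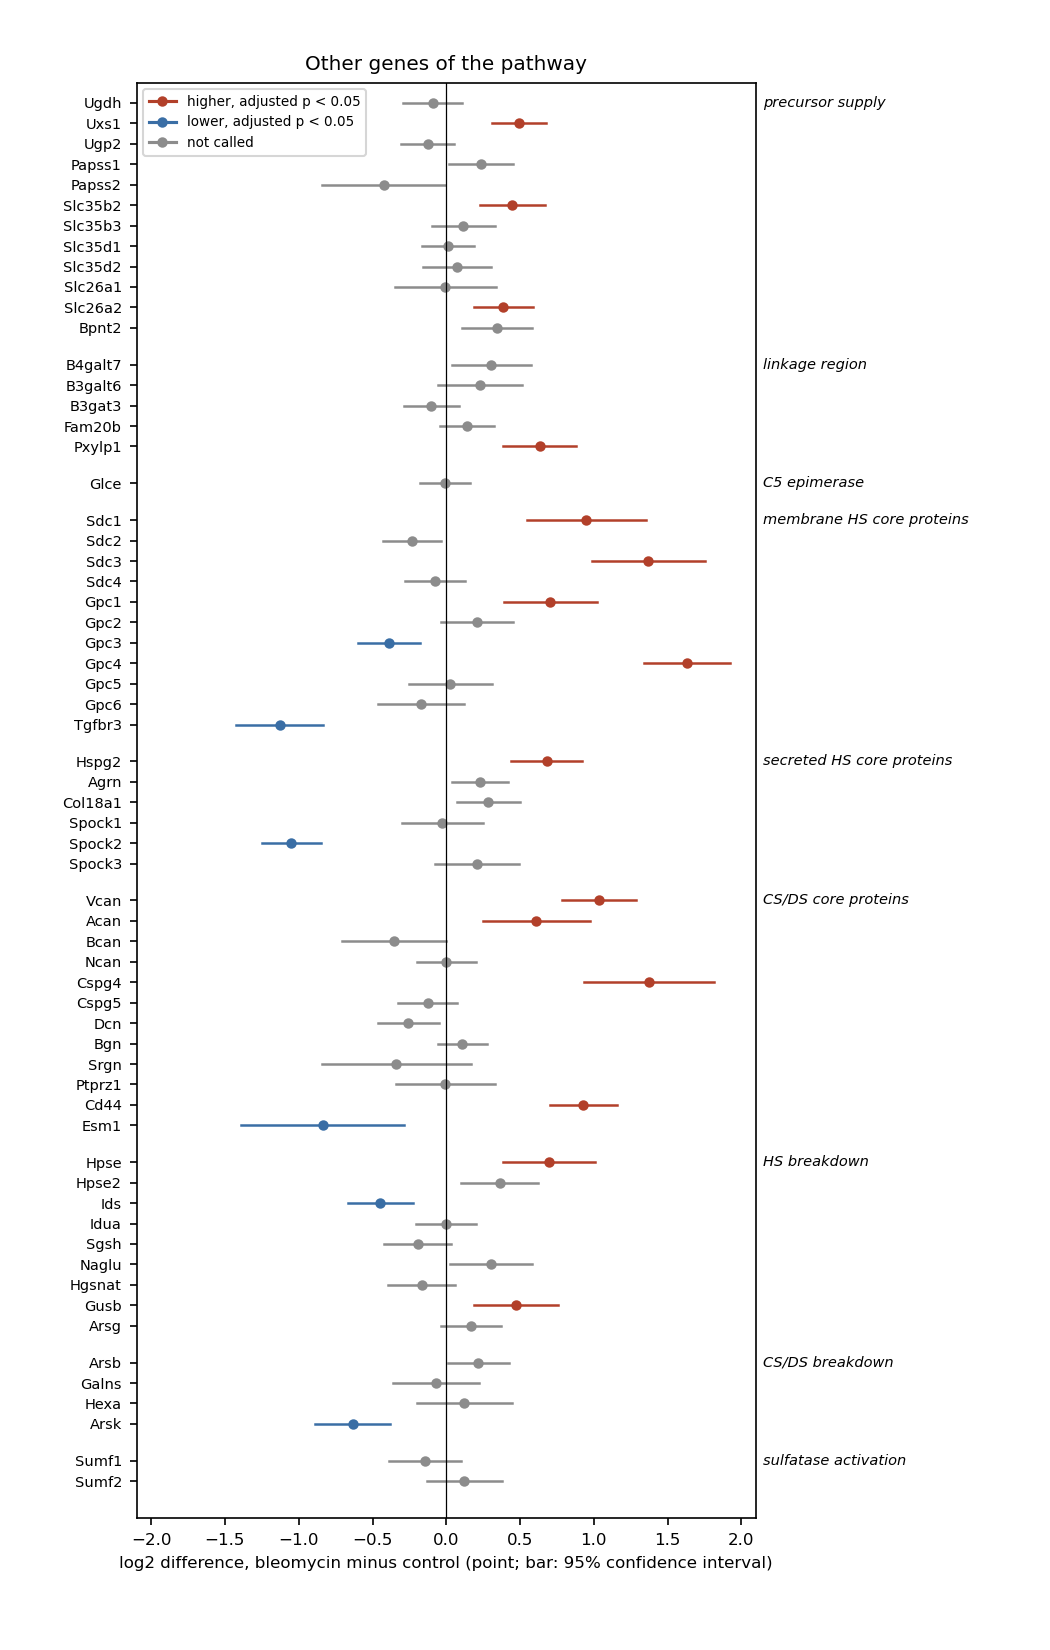
Log2 difference in level (bleomycin minus control, horizontal axis; point with 95% confidence interval) of 62 other genes of the pathway in 9 lists (HS, heparan sulfate; CS, chondroitin sulfate; DS, dermatan sulfate). The 15 genes that were higher reach 1.63 in Gpc4, and the 6 that were lower reach -1.13 in Tgfbr3.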

How the data were processed

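Gene expression of sorted lung mesenchymal cells was measured on 8 1-colour oligonucleotide arrays, from biotinylated cRNA made of 100 ng of total RNA, per the labels' protocols. The deposited table holds 1 value per probe set and array for 41345 probe sets. The authors deposited them as processed values between 0.24 and 13.58, taken from this range to be log2 intensities, and how background was corrected and arrays were normalized was not given in the sources used here. The probe annotation gave 23521 probe sets 1 gene, 1814 several genes and 16010 none, and only those with 1 gene were compared. Arrays have no read depth, and their number limits the precision. The median standard error of a difference was 0.116.

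Levels were compared as deposited in limma 3.58.1 (lmFit, then eBayes; R 4.3.3) by a two-sided test, adjusted by Benjamini-Hochberg over all 22180 genes and a threshold of 0.05. The members and lists were chosen with earlier results of these data known. All members and list genes could be named, with values per array for those that passed and for Ext1 and Ext2, and Sulf2, the genes of printed promoters and the pairs were chosen after their values were seen. A gene was called dim where its mean in both groups was below 4.20, the lowest median of the probe sets without a gene. Alternatives changed the block, scaling, filter, probe set choice, variance model, threshold and arrays used.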

Additional observations from a re-analysis of the deposited data

Results flagged for a closer look

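In 3 of 86 groups of 4 arrays (43 genes in 2 groups), 1 array stood apart from the other 3 by Dixon's test at 95%, and chance gives about 1 in 20. The level of Hs6st2 on bleomycin replicate 3 was 4.68, against 4.16 to 4.22 on the other bleomycin arrays. Hs3st5 was 2.97 on control replicate 2, against 3.34 to 3.42 on the other control arrays, in the range of dim signal. Dse was 8.72 on control replicate 1, against 8.90 to 8.93 on the other control arrays. Hs6st2 and Dse passed with all arrays, and both passed without the array named.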

How the results depend on the processing

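Of the 21 alternatives, none reversed any of the 19 called differences. Quantile normalization, median centring, a trended and robust variance model, array weights and the mean of all probe sets of a gene left 11 enzyme genes higher and 8 lower. Ext1, Chsy3, Chst7 and Chst8 passed in every alternative in which they were tested. Replicates 1 and 2 alone gave 5 enzyme genes higher and 4 lower (838 and 833 of all genes), and replicates 3 and 4 alone gave 2 and 4 (503 and 220 of all genes), with 2 arrays per group. Without control replicates 1 and 2, 5 enzyme genes were lower, with 1205 higher and 992 lower of all genes. With the dimmest 50% of genes left out, 10 enzyme genes were higher and 5 lower (2040 and 2087 of all genes then tested). Hs6st2, which was higher, and Hs3st1, Chst7 and Chst4, which were lower, were then not tested. A threshold of 0.01 gave 7 enzyme genes higher and 4 lower (1079 and 879 of all genes). The fits without 1 array gave 8 to 11 higher and 6 to 8 lower enzyme genes (1497 to 1987 and 1306 to 1883 of all genes), and 13 of the 19 passed in each of them.

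With the replicate block, 11 enzyme genes were higher and 7 lower (1937 and 1838 of all genes), and Hs3st1 lost its call. Deviations of same-numbered arrays correlated between 0.063 and 0.129, and bleomycin replicate 2 correlated best with control replicate 1, so the numbers were not taken to pair the samples. Blocking replicates 1 and 2 from replicates 3 and 4, 12 were higher and 8 lower (2293 and 2168 of all genes). Centring moved the split of all genes to 1623 higher and 2314 lower. Signal near that of probe sets without a gene limits what can be seen for the dim genes Ndst3, Ndst4, Hs3st2, Hs3st5 and Chst9. The same holds for Hs6st2, Chst7, Hs3st1 and Extl1, which came near that level in at least 1 group.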
